A study of Rattus norvegicus with 6 samples.

Results

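Glucocorticoid-induced genes were followed in the rat endosalpinx, the mucosa that lines the oviduct. The set held 10 genes: Fkbp5, Tsc22d3, Sgk1, Zbtb16, Klf9, Ddit4, Errfi1, Cebpd, Pdk4 and Dusp1. They were chosen by symbol as known targets, not by a threshold on these signals, but with earlier results of these data known. Each was represented by the only probe set annotated to its symbol alone, and all 10 were among the 14506 genes measured. The tissue came from 6 adult Sprague-Dawley females weighing 240 to 280 g, with 1 array for each animal and no pooling. The 3 mated rats joined fertile males on the evening of pro-estrus, at 2200 h, were found with sperm or a plug 30 min later, stayed with the males, and were killed 3 h after they had mated, at 0130 h of estrus, with semen in the uterus. The 3 unmated rats were kept alone and killed at 0130 h of estrus, with uterine edema. All animals lived with lights on from 0700 to 2100 h, so every sample was taken in the dark phase. Male company, handling for the smear and mating itself are confounded in this design and cannot be told apart.

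Glucocorticoids, mainly corticosterone in the rat, enter cells and bind the glucocorticoid receptor, a transcription factor held in the cytoplasm by HSP90 and its co-chaperones. The bound receptor moves to the nucleus and binds palindromic response elements, many of them far from the start of the gene, and the genes of this set are among those it induces in many tissues. The progesterone receptor, abundant in the female tract, recognises the same DNA element, and several of these genes also respond to progestins, insulin or growth factor signalling and cellular stress. No hormone concentration is among the values used here.

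The values are log2 signals after RMA, a method that corrects background, equalises the distributions of the arrays and combines the probes of a probe set. The array medians lay between 7.89 and 7.94, and any pair of arrays correlated between 0.992 and 0.995 over all probe sets. Odorant and pheromone receptor genes, which this tissue is not known to use, gave a guide to background. The 95th percentile of 187 such genes was a log2 signal of 7.08. All 10 glucocorticoid-induced genes lay above it, as did 72.1% of all genes. Of 58 measured markers of epithelium, stroma, muscle, vessels, leukocytes, fat and mesothelium, 46 lay above it too. The keratin Krt8 averaged 13.02 in mated and 12.92 in unmated rats, and the ciliated cell factor Foxj1 averaged 10.84 in both. The secretory cell factor Pax8 averaged 10.65 in mated and 10.72 in unmated rats. Krt8, Foxj1 and Pax8 were picked after their values were seen and do not stand for their lists. In mated rats 7 of 8 measured ciliated markers were lower and 4 of 5 secretory markers higher, where 53.2% of all genes were higher. A whole-tissue signal cannot tell fewer cells of a type from less RNA per cell.

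At 3 h after mating none of the 10 genes differed past the threshold after adjustment. Ddit4 lay apart most clearly, 1.22-fold higher in mated rats with no overlap between the groups, and Cebpd was also above all unmated values on every mated array. Pdk4 and Dusp1 had mean differences of similar size, but their signals varied widely from rat to rat and the groups overlapped. Fkbp5, Zbtb16, Klf9 and Sgk1 differed by at most 0.08 log2 units in either direction. The threshold was an adjusted p of 0.05 in limma, a linear model with moderated variances fitted over all genes. The smallest adjusted p among them was 0.984, and 0% of the 14506 genes passed. At an unadjusted p under 0.05, 1 of the 10 genes was higher in mated rats, where 3.02% of all genes were, and 0 were lower, where 1.55% of all genes were. Over all genes that made 438 higher and 225 lower, or 336 higher and 294 lower after each array was centred on its median.

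Counted by sign alone, 8 of the 10 genes had a log2 fold change above 0 as deposited, against 53.2% of all genes. After median centring 7 of the 10 did, against 46.6% of all genes. The share over all genes fell to 50.4% without the dimmest 25% of genes and to 45.3% without the dimmest 50%. Many of the 10 genes rose and fell together across the arrays, so their signs are not separate counts. As deposited, the median log2 fold change of the 10 was 0.11, beside 0.01 over all genes. It lay between 0.06 without unmated replicate 2 and 0.14 without mated replicate 2. The groups did not overlap for 2 of the 10 with the mated arrays higher, a pattern that 5.24% of all genes showed, and for 0 with the mated arrays lower, a pattern of 3.23% of all genes. Leaving out 1 array at a time moved the count above 0 between 6, without mated replicate 1 or unmated replicate 3, and 9, without unmated replicate 1. The number at an unadjusted p under 0.05 higher in mated rats was 3 of 10 without unmated replicate 1, when Pdk4 and Dusp1 joined Ddit4 and 2.92% of all genes were called so. It was 2 without mated replicate 1, with Cebpd added and 5.67% of all genes, and 2 without mated replicate 2, with Pdk4 added and 2.37% of all genes. With the arrays weighted by their fit it was 2, with Cebpd added and 5.3% of all genes.

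**Figure D1:**
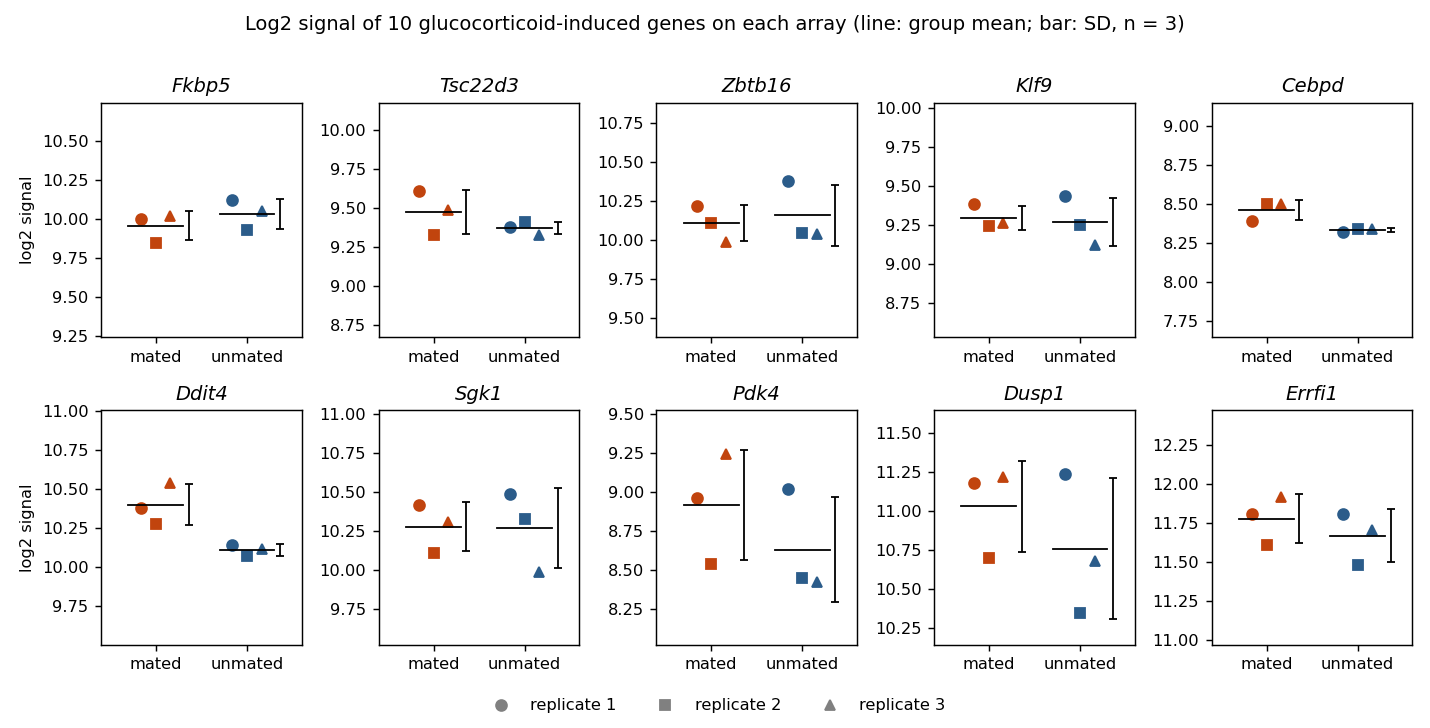
Log2 signal (vertical axis, the same height of 1.5 log2 units in every panel) of each gene on the 3 mated and 3 unmated arrays; symbols mark the replicate number, lines the group means and bars the SD (n = 3). Ddit4 and Cebpd show separate groups, while Pdk4 and Dusp1 show the widest scatter within both groups.

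Fkbp5 encodes an immunophilin that joins the HSP90 complex, lowers the affinity of the receptor for its ligand and so closes a short feedback loop. Its log2 signal was 10, 9.85 and 10.02 on the mated arrays, against 10.12, 9.93 and 10.05 on the unmated arrays. The ranges overlapped only in part, from 9.93 to 10.02, with the lowest value mated and the highest value unmated. The mean difference was -0.08 log2 units, with a 95% confidence interval from -0.27 to 0.11, so the upper end of the interval is a 1.08-fold increase. It ran from -0.13 without unmated replicate 2 to -0.02 without mated replicate 2. Fkbp4, its relative that competes for the same place on HSP90 and favours receptor transport, averaged 12.09 ± 0.14 in mated and 12.06 ± 0.16 in unmated rats (SD, n = 3 each).

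Among the transcriptional regulators, Tsc22d3 encodes GILZ, a leucine zipper protein that dampens NF-kB and AP-1 activity. Its signal was 9.61, 9.33 and 9.49 in mated rats, against 9.38, 9.41 and 9.33 in unmated rats. Only mated replicates 1 and 3 exceeded the unmated values, and mated replicate 2 equalled the lowest of them. The difference was 0.10 (95% confidence interval -0.09 to 0.30), and ran from 0.04 without mated replicate 1 to 0.18 without mated replicate 2. Zbtb16, the zinc finger repressor PLZF, which progestins also induce in human endometrial stroma, lay at 10.22, 10.11 and 9.99 in mated rats and at 10.38, 10.05 and 10.04 in unmated rats. Unmated replicate 1 was the highest of the 6 arrays, and the mean difference was -0.05 (-0.31 to 0.21). It was above 0 without unmated replicate 1, at 0.06, and without mated replicate 3, at 0.008.

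Klf9, a Krüppel-like factor that also modulates progesterone receptor action in the mouse uterus, was at 9.38, 9.24 and 9.26 in mated rats, against 9.43, 9.25 and 9.12 in unmated rats. The unmated arrays spanned the mated ones, and the difference was 0.03 (-0.19 to 0.24). It was below 0 without mated replicate 1 and without unmated replicate 3, at -0.02 and -0.05, and with array weights. Cebpd encodes C/EBP delta, a bZIP factor induced early by glucocorticoids and by acute-phase cytokines. It stood at 8.39, 8.50 and 8.50 in mated rats and at 8.32, 8.34 and 8.34 in unmated rats. The 3 unmated values were nearly identical, and every mated value was higher, by a mean of 0.13 (-0.02 to 0.28). This difference had an unadjusted p = 0.0873 and an adjusted p = 0.984 in limma, and without mated replicate 1 it was 0.17, with an unadjusted p = 0.0378 and an adjusted p = 0.512 in limma. An SD of 0.01 from 3 arrays is itself imprecise.

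Ddit4, also called REDD1, restrains mTOR complex 1 through the TSC1 and TSC2 proteins and responds to glucocorticoids, low oxygen and energy stress. Its log2 signal was 10.38, 10.28 and 10.54 on the mated arrays, against 10.14, 10.07 and 10.12 on the unmated arrays. The lowest mated value was 0.14 above the highest unmated value. The log2 fold change of 0.29 (95% confidence interval 0.10 to 0.48) had an unadjusted p = 0.00806 in limma, rank 93 among 14506 genes, and an adjusted p = 0.984. In each of the 16 alternative analyses the fold change was above 0 and the unadjusted p was below 0.05. The unadjusted p in limma lay between 0.00469 and 0.0296, and the adjusted p was at least 0.506. These alternatives reuse the same arrays and are not separate tests. Several leave the fold change at 0.29 by design, and without overlap between the groups, leaving out 1 array could not turn its sign. The fold change ran from 0.22 without mated replicate 3 to 0.35 without mated replicate 2.

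Sgk1 encodes a kinase that raises sodium channel activity at the epithelial surface by restraining the ubiquitin ligase NEDD4L. It was at 10.42, 10.11 and 10.31 in mated rats, against 10.49, 10.33 and 9.99 in unmated rats. The highest and the lowest of the 6 arrays were both unmated. The mean difference was 0.01 (-0.31 to 0.33), and its sign turned to below 0 after median centring, with array weights, and without mated replicate 1, mated replicate 3 or unmated replicate 3. Pdk4 encodes pyruvate dehydrogenase kinase 4, which shuts pyruvate out of the mitochondrial acetyl-CoA supply and spares glucose. It was at 8.96, 8.54 and 9.24 in mated rats and at 9.02, 8.45 and 8.42 in unmated rats. High and low arrays occurred in both groups. The difference of 0.28 had an interval from -0.20 to 0.77, and became 0.48 without unmated replicate 1 (unadjusted p = 0.0353 in limma) and 0.12 without mated replicate 3.

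The last pair of genes are inhibitors of growth factor signalling. Dusp1 encodes MKP-1, a phosphatase that inactivates p38, JNK and ERK and is also an immediate early gene. Its signal was 11.18, 10.70 and 11.22 in mated rats, against 11.24, 10.35 and 10.68 in unmated rats. The single highest value was unmated. The difference of 0.28 (-0.25 to 0.80) became 0.52 without unmated replicate 1 (unadjusted p = 0.0211 in limma, adjusted p = 0.997) and 0.07 without unmated replicate 2. Errfi1, also called MIG6, blocks the kinase domain of EGF receptor family members. It was at 11.81, 11.61 and 11.92 in mated rats, against 11.81, 11.48 and 11.71 in unmated rats, a difference of 0.11 (-0.15 to 0.37) that ran from 0.02 without unmated replicate 2 to 0.20 without mated replicate 2. Mated replicate 1 and unmated replicate 1 had the same value.

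**Figure D2:**
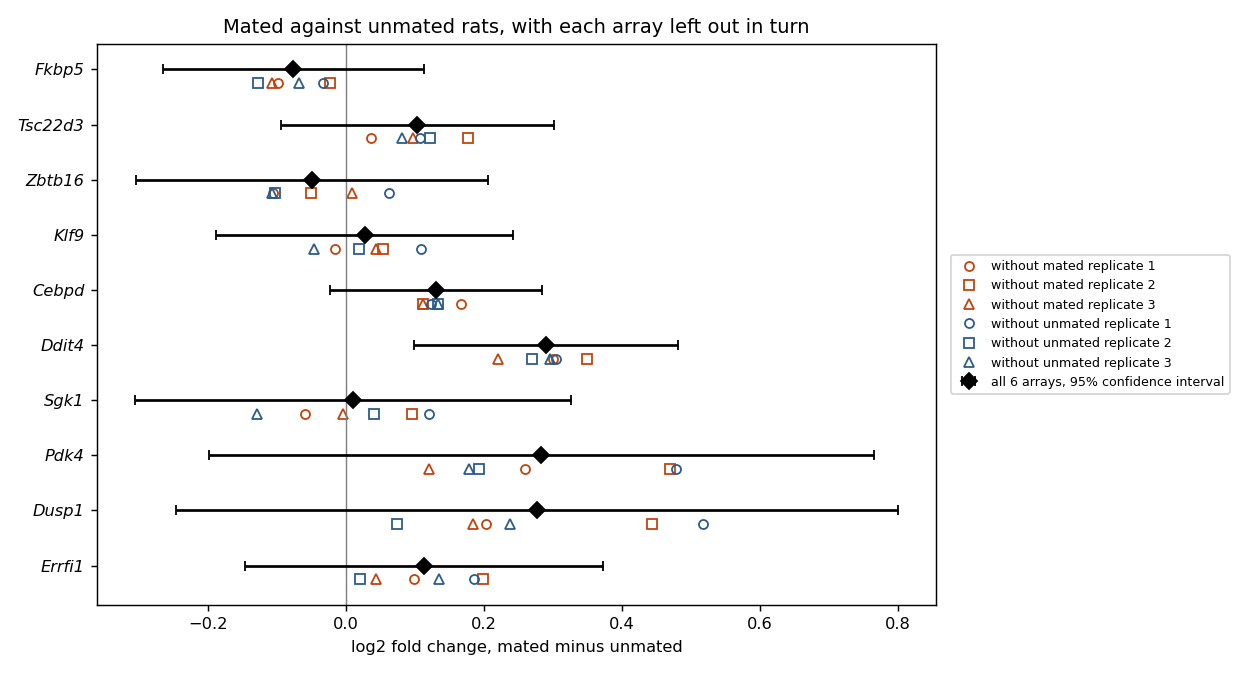
Log2 fold change of each gene, mated minus unmated (horizontal axis), with its 95% confidence interval over 6 arrays (diamonds) and the value with each array left out in turn (open symbols, coloured by the group of the array left out). The interval of Ddit4 lies above 0 and those of the other 9 genes include 0; the open symbols of Pdk4 and Dusp1 are spread most widely.

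The arrays differed from each other in much the same way for several of the genes, across the groups as well as between them. Among the unmated arrays, replicate 1 was the highest for 8 of the 10 genes, and among the mated arrays, replicate 2 was the lowest for 8 of 10. The mean of the 10 genes, each taken relative to its unmated mean, was 0.18, -0.03 and 0.19 log2 units on mated replicates 1 to 3, against 0.17, -0.09 and -0.08 on unmated replicates 1 to 3. Mated replicates 1 and 3 and unmated replicate 1 therefore formed the upper 3 arrays for this set, and they came from both groups. The mean over all genes, taken in the same way, lay between -0.004 and 0.018 on every array. Normalization holds that all-gene mean near 0, so it does not show how far a mean of 10 genes can vary.

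**Figure D3:**
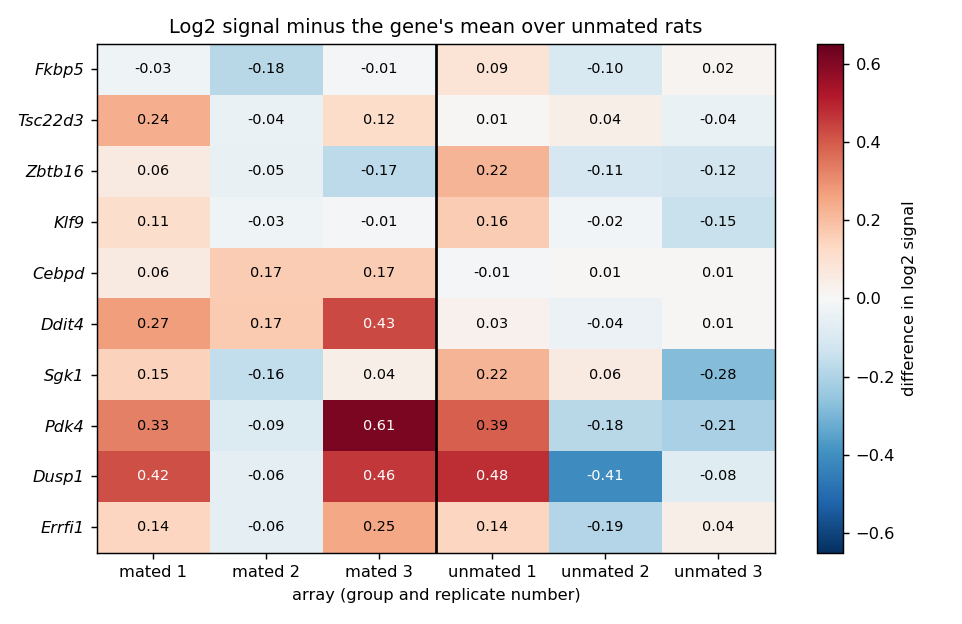
Difference in log2 signal from the gene's unmated mean for each gene (rows) on each array (columns, mated left of the line and unmated right), in colour and in figures. Red cells gather on mated replicates 1 and 3 and on unmated replicate 1, most of all for Pdk4 and Dusp1, while the mated cells of Ddit4 and Cebpd are all above 0.

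Over the 6 arrays, 39 of the 45 pairs of these genes had a Pearson r above 0. The median r was 0.48 and the mean 0.40. The mean over all pairs of the 14506 genes was 0.004, but normalization holds that mean near 0, so it is no benchmark for these genes. The share of all gene pairs with an r above 0 was not computed. When each value was taken relative to its own group's mean, 36 of 45 pairs were above 0 and the median was 0.45. The highest were Errfi1 with Dusp1 at 0.94, Sgk1 with Klf9 at 0.92 and Pdk4 with Dusp1 at 0.92, and the lowest was Fkbp5 with Cebpd at -0.55. Pdk4 and Dusp1 followed the mean of the other 9 genes most closely, at r = 0.95 and 0.94, and Cebpd least, at 0.14. That mean was not scaled by gene, so genes of wide scatter weighed most in it. Pdk4 and Dusp1 had the widest scatter, so their rank partly reflects each other. These figures describe 6 arrays, and the paired genes share the same arrays, labelling and normalization.

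The scatter of the genes was unequal. The SD over the 6 arrays was 0.37 log2 units for Dusp1 and 0.35 for Pdk4, larger than that of about 98% of all genes (percentiles 98.6 and 98.2). Cebpd at 0.08 and Fkbp5 at 0.09 were below the median of all genes, 0.11. For 6 of the 10 genes the spread was larger among unmated rats, as for Dusp1 with an SD of 0.29 in mated and 0.45 in unmated rats, and for 4 it was larger among mated rats.

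Outside the set, the genes whose pattern over the 6 arrays lay closest to the mean of the 10 were Syt4 (r = 0.983), Vom1r67 (0.977), Rarres2 (0.969), B3gnt5 (0.965) and Mmp20 (0.957), out of 3865 genes with an SD of at least 0.15. Rarres2 encodes the chemoattractant chemerin and B3gnt5 a glycolipid glycosyltransferase. Rarres2 averaged 9.09 ± 0.23 in mated and 8.87 ± 0.20 in unmated rats, and B3gnt5 8.11 ± 0.26 in mated and 7.79 ± 0.25 in unmated rats (SD, n = 3 each). The signals of Syt4, Vom1r67 and Mmp20 lay within the receptor range that served as a guide to background. These r values describe the same 6 arrays and were picked as the highest. The mean of the 10 was likewise not scaled by gene.

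The start regions of the genes were read from RefSeq, in windows of 250 bases before to 50 after each annotated start in the rat assembly GRCr8. Windows were found for 8 of the 10 genes, 12 in all, because Tsc22d3 and Sgk1 each have 3 starts. Zbtb16 and Cebpd had none. The full response element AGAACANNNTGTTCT was not in any of the 12 windows and is in 0.0149% of the 33469 windows of all genes. Its single arm AGAACA was in none of the 12 either, and is in 20.7% of all windows. The inner bases ACANNNTGT were in 1 window of Tsc22d3, against 6.86% of all windows. The cyclic AMP response element TGACGTCA was in Dusp1 only, against 1.83% of all windows, and its core TGACG, which overlaps it, was in 4 of the 12 windows and in 21.2% of all windows. The forkhead motif GTAAACA, which FOXO factors bind, was in Klf9 and in the first Tsc22d3 window, against 3.78% of all windows. TATAAA was in 4 of the 12 windows and 14.2% of all, and CCAAT in 6 of the 12 and 37.5% of all. Both strands were searched. A match describes letters in a short window and does not show a site in use.

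These 4 windows are shown because Ddit4 had the smallest p, Dusp1 the widest scatter, and Klf9 and Tsc22d3 the forkhead motif. They are written 5′ to 3′ on the strand of the gene, with every match to the motifs above in capitals; positions count from the start site, which follows base -1.
Ddit4 (chr20:28436988-28437287, minus strand): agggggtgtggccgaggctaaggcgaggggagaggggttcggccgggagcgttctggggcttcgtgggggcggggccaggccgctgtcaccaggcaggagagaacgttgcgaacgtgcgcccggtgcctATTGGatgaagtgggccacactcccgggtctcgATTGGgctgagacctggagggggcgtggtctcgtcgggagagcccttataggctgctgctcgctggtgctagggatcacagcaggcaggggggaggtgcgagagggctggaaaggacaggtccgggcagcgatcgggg
Dusp1 (chr10:17184603-17184902, plus strand): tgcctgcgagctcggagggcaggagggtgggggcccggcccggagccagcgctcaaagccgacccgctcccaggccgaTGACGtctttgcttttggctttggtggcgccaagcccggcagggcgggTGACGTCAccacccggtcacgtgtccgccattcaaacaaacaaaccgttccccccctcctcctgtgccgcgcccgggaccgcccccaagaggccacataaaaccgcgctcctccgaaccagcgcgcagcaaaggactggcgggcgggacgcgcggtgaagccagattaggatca
Klf9 (chr1:230126396-230126695, plus strand): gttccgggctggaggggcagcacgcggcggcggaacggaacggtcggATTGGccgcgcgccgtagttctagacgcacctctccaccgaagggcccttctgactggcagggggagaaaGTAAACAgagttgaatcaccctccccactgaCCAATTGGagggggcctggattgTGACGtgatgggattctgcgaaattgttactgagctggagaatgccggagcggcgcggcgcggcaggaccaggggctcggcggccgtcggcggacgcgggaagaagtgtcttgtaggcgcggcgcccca
Tsc22d3 (chrX:109009985-109010284, minus strand): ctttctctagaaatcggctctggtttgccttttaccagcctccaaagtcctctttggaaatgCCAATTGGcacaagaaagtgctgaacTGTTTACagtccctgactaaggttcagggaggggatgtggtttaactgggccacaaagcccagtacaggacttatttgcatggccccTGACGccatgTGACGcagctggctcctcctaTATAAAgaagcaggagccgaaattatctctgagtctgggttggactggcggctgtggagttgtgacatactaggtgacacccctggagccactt

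In the Ddit4 window the capitals mark CCAAT boxes on the opposite strand, at -121 to -117 and at -88 to -84. In Dusp1 they mark the cyclic AMP response element at -124 to -117 and 1 further core at -172 to -168. In Klf9 the forkhead motif is at -133 to -127 and the core of the cyclic AMP response element at -79 to -75. In Tsc22d3 the forkhead motif is at -162 to -156, read on the opposite strand, a TATA box is at -44 to -39, and the cores are at -75 to -71 and -65 to -61. The remaining capitals in Klf9 and Tsc22d3 are CCAAT boxes. The array gave 1 signal per gene, so the starts of Tsc22d3 and of Sgk1 could not be told apart.

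Genes that supply or read the hormone showed no difference past the threshold. Of 10 measured, 7 were higher and 3 lower in mated rats, where 53.2% of all genes were higher. Their median log2 fold change was 0.02. At an unadjusted p under 0.05 there were 0 in either direction, where 3.02% of all genes were higher and 1.55% lower. The glucocorticoid receptor Nr3c1 had signals of 10.50, 10.35 and 10.36 in mated rats, against 10.34, 10.52 and 10.22 in unmated rats. These ranges overlapped, with a difference of 0.04 (95% confidence interval -0.17 to 0.26). The mineralocorticoid receptor Nr3c2 differed by 0.003 (-0.16 to 0.17). Hsd11b1, the enzyme that regenerates active glucocorticoid inside cells, averaged 12.17 ± 0.07 in mated and 12.13 ± 0.06 in unmated rats. Hsd11b2, which inactivates it, averaged 7.63 ± 0.10 in mated and 7.53 ± 0.06 in unmated rats (SD, n = 3 each). The progesterone receptor Pgr, which had the smallest p of this list, differed by -0.12 (-0.30 to 0.06).

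The chaperones and co-chaperones of the receptor were higher in mated rats for 12 of 14 genes, where 53.2% of all genes were. Their median was 0.08. At an unadjusted p under 0.05, 2 of the 14 were higher, where 3.02% of all genes were. These 2 were Stip1, the HOP protein that links HSP70 and HSP90, and St13, the HSP70-interacting protein. Stip1 was at 12.33, 12.23 and 12.56 in mated rats, against 11.85, 12.26 and 11.97 in unmated rats, and mated replicate 2 lay below the highest unmated array. St13 was at 11.74, 11.73 and 11.94 in mated rats, against 11.53, 11.68 and 11.50 in unmated rats, with no overlap. Their adjusted p was 0.984 each in limma. The 9 measured coregulators had a median of 0.007, with 5 higher and 4 lower and none at an unadjusted p under 0.05. Hdac3, the deacetylase of the NCoR complex, had the smallest p there, at a difference of -0.10 (-0.29 to 0.09), followed by the coactivator Ncoa1 at -0.07 (-0.24 to 0.10).

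A further 28 genes known to be induced by glucocorticoids in other tissues were measured, of which 20 were higher and 7 lower in mated rats and 1 was equal. Their median log2 fold change was 0.04, and 3 had an unadjusted p under 0.05, all higher in mated rats. Over all genes 53.2% were higher, and 3.02% were higher at an unadjusted p under 0.05. Map3k6, a stress kinase gene, lay at 8.65, 8.61 and 8.79 in mated rats, against 8.48, 8.34 and 8.39 in unmated rats, and its groups were separate (unadjusted p = 0.00714, adjusted p = 0.984 in limma). Rgs2, which shortens G protein signals, lay at 9.71, 9.53 and 9.54 in mated rats, against 9.55, 8.94 and 9.05 in unmated rats. The clock gene Per1, a direct receptor target in many cells, had a difference of 0 (-0.23 to 0.23), with signals of 9.37, 9.43 and 9.50 in mated rats and 9.64, 9.28 and 9.38 in unmated rats. Unmated replicate 1 was again the highest. Of 15 inflammatory genes that glucocorticoids repress, 10 were higher and 5 lower, with 8 of the 15 within the receptor range. Ccl5, a chemokine, differed by -0.15 (-0.32 to 0.02), and the chemokine Cxcl2, within that range, by 0.26 (0.02 to 0.49). Map3k6, Rgs2, Ccl5 and Cxcl2 were named as the genes of smallest p in their lists. For Rgs2, Ccl5 and Cxcl2 the adjusted p was likewise 0.984 in limma.

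**Figure D4:**
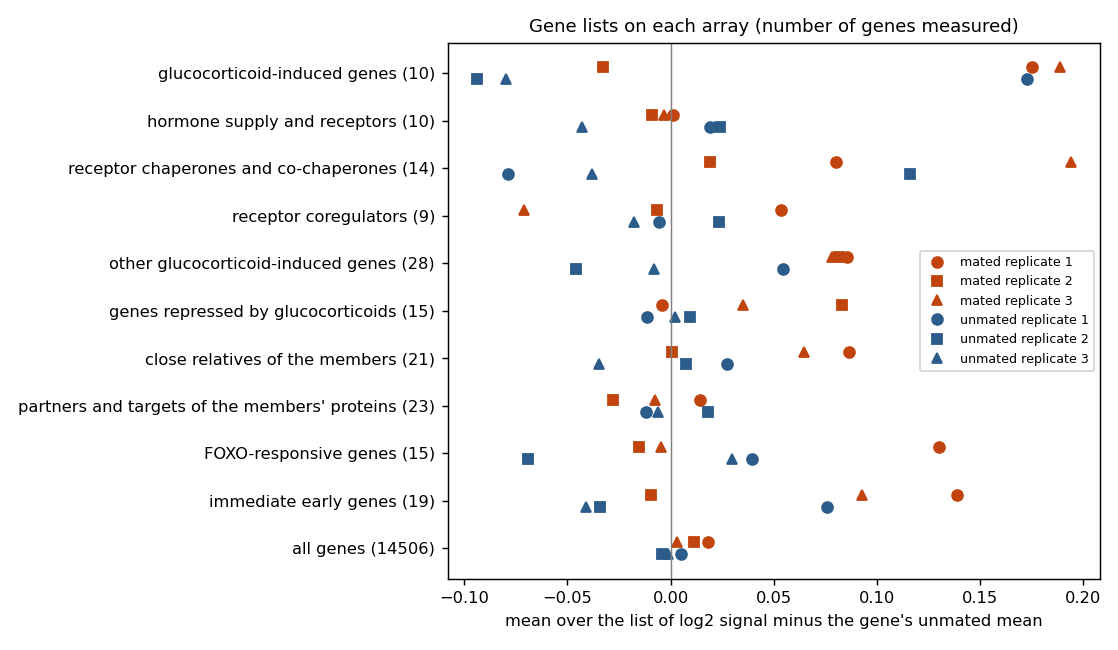
Mean over each gene list of the log2 signal minus the gene's unmated mean (horizontal axis), 1 symbol per array, with the number of genes measured in brackets. For the glucocorticoid-induced genes and for the immediate early genes the upper symbols are mated replicates 1 and 3 and unmated replicate 1. All genes together stay near 0, where normalization holds them.

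Close relatives of the 10 genes were measured for 21 entries, of which 13 were higher and 8 lower in mated rats, with a median of 0.05. Over all genes 53.2% were higher, and 3.02% were higher at an unadjusted p under 0.05. Dusp6, a phosphatase specific for ERK, was alone at an unadjusted p under 0.05, with a difference of 0.23 (0.02 to 0.45). Cebpe followed at 0.20 (-0.01 to 0.41). Genes for the partners and targets of the 10 gene products, such as sodium channel subunits, EGF receptors, MAP kinases and the pyruvate dehydrogenase complex, had a median of -0.01 over 23 genes, with 10 higher and 12 lower and 1 equal. Ndrg1, whose protein is a substrate of SGK1, differed by 0.28 (0.01 to 0.55), and the sodium channel subunit Scnn1b, within the receptor range, by -0.13 (-0.31 to 0.04). Genes that respond to FOXO factors had a median of 0.007 over 15 genes, with 8 higher and 7 lower. Trim63, a muscle ubiquitin ligase within the receptor range, differed by 0.23 (0.02 to 0.44), and Bnip3 by 0.22 (-0.11 to 0.55). The genes named from these lists were those of smallest p, and each had an adjusted p = 0.984 in limma.

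Immediate early genes were higher in mated rats for 16 of 19, with a median of 0.07, where 53.2% of all genes were higher. At an unadjusted p under 0.05, 2 of the 19 were higher, where 3.02% of all genes were. Nr4a3, an orphan nuclear receptor, differed by 0.31 (0.05 to 0.57), and Fos by 0.17 (0.01 to 0.34), with adjusted p = 0.984 each in limma. Their mean by array was 0.14, -0.01 and 0.09 on mated replicates 1 to 3, against 0.08, -0.03 and -0.04 on unmated replicates 1 to 3. The upper 3 arrays were therefore the same as for the glucocorticoid-induced genes. This was so for 2 of the 9 lists of pathway genes, the other being the close relatives, and for 0 of the 9 lists of cell type markers. Fibroblast markers, lower in mated rats for 8 of 9 genes, had means of -0.23, -0.08 and -0.08 on mated replicates 1 to 3, against 0.10, 0.06 and -0.16 on unmated replicates 1 to 3. Ciliated cell markers, lower for 7 of 8 genes, had means of 0.12, -0.09 and -0.15 on mated replicates 1 to 3, against -0.07, 0.08 and -0.002 on unmated replicates 1 to 3. The eighth ciliated marker, Spag6, singled out after its value was seen and within the receptor range, was higher in mated rats by 0.17 with no overlap (unadjusted p = 0.0456, adjusted p = 0.984 in limma). Markers of simple epithelium were higher in mated rats for 4 of 6 genes, of secretory cells for 4 of 5 and of adipocytes for 4 of 5. Leukocyte markers were higher for 6 of 11, endothelial markers for 4 of 6, smooth muscle markers for 1 of 6 and mesothelial markers for 1 of 2. What part immediate early induction or cell makeup had in the values of the 10 genes was not tested.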

How the data were processed

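Total RNA (0.3 µg per animal) was labelled by a whole-transcript protocol for Affymetrix arrays, per the labels' protocols. The authors deposited log2 signals, 1 per probe set and array, made with RMA in Affymetrix Expression Console, per the submitters' processing notes; versions, batches and genome build are not given in the sources used here. The log2 scale was inferred from the range of the values.

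Of 29214 probe sets, 15310 had exactly 1 symbol in the array annotation, 323 had several and 13581 had none listed. The probe set of highest mean per gene was kept, leaving 14506 genes. The comparison of mated against unmated animals used limma 3.58.1 in R 4.3.3 (lmFit and eBayes, two-sided, Benjamini-Hochberg adjustment over all genes). SEs and 95% confidence intervals are those of this fit, SDs those of 3 arrays. Depth does not apply to arrays, and their number limits precision: the interval of the median gene reached 0.20 to either side.

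The 10 genes and the other lists (9 of pathways with 159 different genes, 147 measured, and 9 of cell type markers with 65 entries, 58 measured) were chosen with earlier results of these data known; list members without a probe set of their own are not analysed here. The rule for named genes took the 10 genes, Nr3c1, Nr3c2, Hsd11b1, Hsd11b2, Pgr, Fkbp4 and Per1, the 2 genes of smallest p in each pathway list, and the 5 most alike in pattern; Krt8, Foxj1 and Pax8 were chosen after their values were seen. Alternatives covered the variance model, array weights, scaling, dim genes, probe set choice, the replicate number as a block and each array left out.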

Additional observations from a re-analysis of the deposited data

How the results depend on the processing

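No gene passed the adjusted threshold under any of the 16 alternatives, with the smallest adjusted p over all genes between 0.104, without mated replicate 1, and 0.998. The count of genes at an unadjusted p under 0.05 was 663 as deposited and 1207 with array weights. It was 262 without the dimmest 50% of genes, where fewer genes were tested, and ran from 432 to 1403 when 1 array was left out, lowest without unmated replicate 2 and highest without mated replicate 1. The number of glucocorticoid-induced genes above 0 lay between 6 and 9, and their median log2 fold change between 0.06 and 0.14. The dimmest 50% of genes included Cebpd, which was then not tested. Ddit4, Cebpd, Pdk4, Dusp1, Errfi1, Tsc22d3 and Fkbp5 kept their direction under every alternative that tested them. The alternatives reuse the same arrays, so a kept direction is not repeated evidence. Signs turned for 3 genes with differences near 0. Sgk1 was -0.0623 with array weights and -0.00667 after median centring, and Klf9 was -0.017 with array weights. With 1 array left out Sgk1 ran from -0.13 to 0.12, Klf9 from -0.0467 to 0.108 and Zbtb16 from -0.108 to 0.0617. The cause of these turns was not tested. Over all genes, deviations of same-numbered arrays correlated at 0.004, -0.08 and 0.07. These values gave no sign of pairing by replicate number, but they cannot show that same-numbered animals shared no batch. With the replicate number as a block 672 genes had an unadjusted p under 0.05. Of the 10 genes 8 were above 0, with a median of 0.11, and no call among them changed. The block moved the unadjusted p in limma from 0.258 to 0.0672 for Dusp1 and from 0.00806 to 0.0116 for Ddit4. With 3 arrays a group, the observed difference of a gene had to exceed the interval's reach to be told from 0 before any adjustment. That reach ran from 0.15 log2 units either side for Cebpd to 0.52 for Dusp1. A true change of that size could still be missed.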
